A study of Homo sapiens with 6 samples.

Results

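The 10 genes described here belong to the BCL2 family of apoptosis regulators: BCL2, BCL2L1, MCL1, BAX, BAK1, BBC3, BCL2L11, BID, BIK and PMAIP1. They were taken by name from the platform's probe annotation, which names 19775 genes with a probe set of their own, 9 of these 10 among them. SK-Hep1 is an established human line derived from a liver adenocarcinoma, and its cells were measured 16 hours after a lipid transfection. The 3 anti-miR-21 samples received 20 nM of an oligonucleotide directed against the microRNA miR-21, and the 3 mock samples went through the transfection without it. The series design calls the mock compound PBS. No group given a control oligonucleotide was analysed here, so an effect of miR-21 blockade and an effect of carrying any oligonucleotide cannot be told apart. All samples came from 1 line. The molecule is labelled as total RNA, although the collection protocol cites an Argonaute immunoprecipitation procedure, so it is uncertain which RNA fraction these values describe. One microarray was made per sample, and the values are log2 expression per probe set, a group of probes that together read 1 stretch of a transcript.

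BCL2 family proteins decide whether the outer mitochondrial membrane is breached during apoptosis. The guardians BCL2, BCL-XL (from BCL2L1) and MCL1 hold the effectors BAX and BAK in check. The BH3-only proteins BIM (BCL2L11), BID, BIK, PUMA (BBC3) and NOXA (PMAIP1) relay stress signals by engaging the guardians, the effectors or both, and the balance among these classes sets how readily a cell releases cytochrome c. In tumours, miR-21 is widely described as an oncogenic, survival-promoting microRNA.

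Of the 31 probe sets annotated to these genes, 30 list 1 gene and 1 lists BBC3 together with 2 microRNA genes. With a mean log2 value of at least 4 over the 6 arrays, 22 of the 30 were tested and 8 were not, the latter with means between 2.12 and 3.20. The tested probe sets cover 9 genes. BBC3 has no probe set of its own. The shared probe set, which cannot be assigned to BBC3 alone, read 7.49, 7.59 and 7.67 on the mock arrays and 7.52, 7.63 and 7.64 on the anti-miR-21 arrays, so the groups overlapped (log2 difference 0.01, limma adjusted p = 0.935). Arrays do not give levels that can be ordered between genes, so each gene is compared only with itself.

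The sequences below show the target of the compound and the start regions of 2 members, BCL2L11, which was the member called, and PMAIP1, which by its brightest probe set had the next smallest p. The first line is mature miR-21-5p, encoded at chr17:59841273-59841294 on the plus strand (RefSeq, GRCh38.p14), with its seed, bases 2 to 8, in capitals.
miR-21-5p: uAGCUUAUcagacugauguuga
The next 2 lines run from 250 bases before to 50 after the annotated start of each gene. BCL2L11 lies on the plus strand (chr2:111120664-111120963, GRCh38.p14), and the capitals mark a match to the forkhead motif GTAAACA, which FOXO factors bind.
BCL2L11: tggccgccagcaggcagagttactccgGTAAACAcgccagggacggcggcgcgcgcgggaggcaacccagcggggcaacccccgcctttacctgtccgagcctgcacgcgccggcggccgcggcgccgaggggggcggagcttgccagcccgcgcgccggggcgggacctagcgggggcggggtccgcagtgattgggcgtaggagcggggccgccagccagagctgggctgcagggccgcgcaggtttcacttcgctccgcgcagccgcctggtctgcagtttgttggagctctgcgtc
PMAIP1 also lies on the plus strand (chr18:59899746-59900045, GRCh38.p14), and the capitals mark a match, on the strand opposite to the gene, to TGACG, the core of the cyclic AMP response element bound by CREB and ATF factors.
PMAIP1: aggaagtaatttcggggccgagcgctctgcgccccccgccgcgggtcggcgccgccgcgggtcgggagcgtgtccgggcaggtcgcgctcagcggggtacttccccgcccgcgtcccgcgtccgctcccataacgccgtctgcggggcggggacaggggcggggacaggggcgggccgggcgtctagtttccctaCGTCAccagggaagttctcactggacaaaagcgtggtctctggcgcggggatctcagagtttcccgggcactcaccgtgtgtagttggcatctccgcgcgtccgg
Both strands were searched for 5 motifs in the RefSeq start regions of 8 members. MCL1 and BIK had no start region among those used and were not searched. The forkhead motif GTAAACA was found in BCL2L11 and in no other member searched, and 3.42% of all 35116 start regions hold it. TGACG was found in PMAIP1, BAX, BCL2 and 1 of the 2 BCL2L1 start regions, against 24.6% of all start regions. The GC box GGGCGG was found in 6 of the 8 members (BCL2L1, BAX, BAK1, BCL2L11, BID and PMAIP1), against 45.0% of all start regions. The CCAAT box, searched as ATTGG, was found in BAX, BAK1, BBC3 and BCL2L11 (34.6% of all), and the E-box CACGTG in BAX, BBC3 and BID (7.26% of all). Members with several start regions were counted where any of them matched, while the shares of all are per start region, so these are not directly comparable. TGACG and CACGTG share bases in BAX, and none of the 5 motifs overlap in BCL2L11 or PMAIP1. A match describes letters in this window and does not show that a factor binds there.

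BCL2L11, which encodes BIM, fell in cells given anti-miR-21, and it was the 1 member called by limma. Its brightest probe set, 225606_at, read 7.61, 7.59 and 7.76 on the mock arrays and 7.03, 6.73 and 6.73 on the anti-miR-21 arrays. Every anti-miR-21 array lay below every mock array, with anti-miR-21 replicate 1 the closest to mock. The fall was 1.77-fold, a log2 difference of -0.82 ± 0.097 (SE) from 7.65 ± 0.09 to 6.83 ± 0.17 (SD, n = 3, limma adjusted p = 0.0144), with a 95% interval of -1.05 to -0.59. By p value BCL2L11 ranked 53 of 10848 genes, and its log2 difference was the 14th most negative of 132 genes called lower. Of all genes tested, 2.13% were called, 1.22% lower and 0.913% higher, against 1 lower and none higher among the 9 members tested. Of all probe sets tested, 2.17% were called, 1.07% lower and 1.1% higher, against 1 lower and none higher among the 22 of members. A single call among so few members describes BCL2L11 and not the family. Before adjustment, 3 member probe sets passed 0.05 as higher (1 of PMAIP1 and 2 of BID) and 2 as lower (both of BCL2L11), of 22, where 8.06% of all probe sets did as higher and 9.7% as lower.

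None of the other BCL2L11 probe sets passed the test, and their differences were smaller. Probe set 1558143_a_at read 7.05, 7.10 and 6.87 in mock and 6.65, 6.89 and 6.85 with anti-miR-21, so that anti-miR-21 replicate 2 overlapped the mock arrays. Its log2 difference was -0.22 ± 0.0905 (SE, limma adjusted p = 0.281). Probe set 1553096_s_at read 6.78, 6.77 and 6.70 in mock and 6.95, 6.77 and 6.50 with anti-miR-21, where 1 array lay above, 1 within and 1 below the mock range (log2 difference -0.01, limma adjusted p = 0.963). Among the 4 probe sets below the minimum, 222343_at was lower on every anti-miR-21 array, at 2.99, 2.90 and 3.04 against 3.31, 3.30 and 3.61 in mock (log2 difference -0.43, limma adjusted p = 0.157 when all probe sets were tested), and the other 3 differed by at most 0.03 on the log2 scale.

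BCL2L11 is spliced into several forms, and its probe sets need not read the same ones. Set against the mean of the other 2 tested probe sets, 225606_at was lower by a log2 difference of -0.71 ± 0.117 (SE) and 1553096_s_at higher by 0.51 ± 0.104 (SE). Whether probe sets of 1 gene moved apart was tested in all 5285 genes with at least 2 tested probe sets, and 1.42% of them passed. BCL2L11 did not (limma with Simes' method, adjusted p = 0.0826), and neither did the 6 other members with several tested probe sets (adjusted p = 0.561 to 0.99). Averaging the 3 BCL2L11 probe sets gave a smaller log2 difference, -0.35, which was still called (limma adjusted p = 0.027).

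The call of BCL2L11 depended on which array was left out. It was kept without mock replicate 1 (limma adjusted p = 0.0382) and without anti-miR-21 replicate 1 (0.00836), and it was lost without mock replicate 2 (0.0669) or 3 (0.0566) and without anti-miR-21 replicate 2 (0.0648) or 3 (0.0632). The log2 difference lay between -0.92 and -0.77 in all 6 of these fits.

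**Figure D1:**
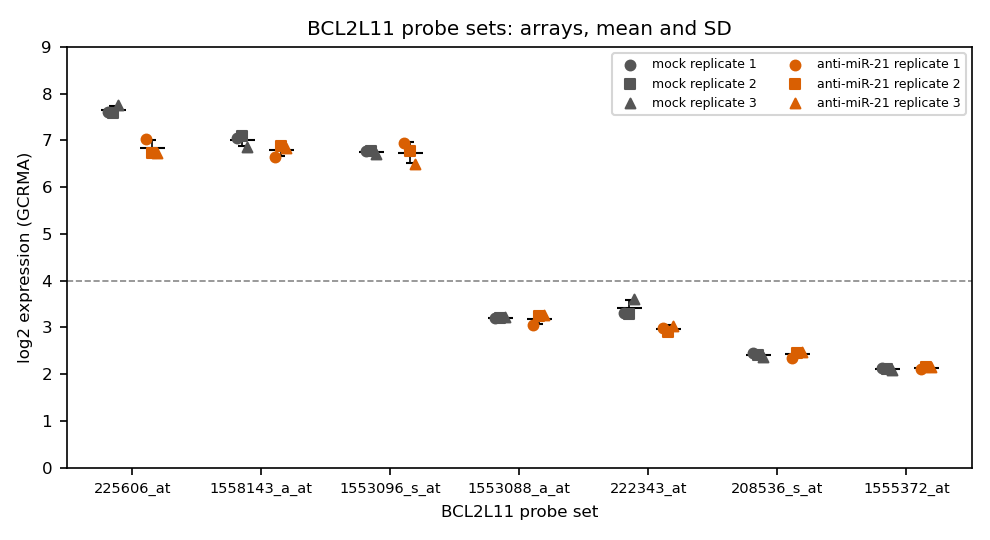
Log2 expression of the 7 BCL2L11 probe sets on each array, grey for mock and orange for anti-miR-21, with black bars for the mean and SD of 3 arrays and a dashed line at the minimum mean of 4. The groups separate at 225606_at (7.65 against 6.83) and, below the line, at 222343_at, and they overlap at the other 5 probe sets.

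PMAIP1, which encodes NOXA, a BH3-only protein that neutralises MCL1, did not pass the test, although its 2 probe sets had the largest positive differences of the family. Probe set 204285_s_at read 10.83, 10.69 and 10.64 in mock and 10.93, 11.29 and 11.29 with anti-miR-21. All anti-miR-21 arrays lay above mock, replicate 1 by less than replicates 2 and 3. The log2 difference was 0.46 ± 0.111 (SE, limma adjusted p = 0.0993), or 1.37-fold, with a 95% interval of 0.19 to 0.72. Probe set 204286_s_at read 9.22, 8.79 and 8.73 in mock and 8.99, 9.61 and 9.55 with anti-miR-21, with replicate 1 inside the mock range (log2 difference 0.47 ± 0.197 SE, limma adjusted p = 0.281). Without anti-miR-21 replicate 1, the first of these probe sets was called at a log2 difference of 0.58 (limma adjusted p = 0.0277) and the count of called members became 2. The second was not called in that fit (0.0945). In the other 5 fits with 1 array left out, the first had log2 differences of 0.40 to 0.51 and was not called (adjusted p = 0.106 to 0.294).

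BID, a BH3-only protein that is cut by caspase 8 and carries death receptor signals to mitochondria, had every anti-miR-21 array above every mock array on its 3 probe sets, and none passed the test. Probe set 204493_at read 9.45, 9.55 and 9.48 in mock and 9.79, 9.66 and 9.75 with anti-miR-21 (log2 difference 0.24 ± 0.0573 SE, limma adjusted p = 0.092). Probe set 227143_s_at read 9.70, 9.81 and 9.87 in mock and 10.30, 9.98 and 10.04 with anti-miR-21 (0.31 ± 0.0966 SE, adjusted p = 0.166). The brightest, 211725_s_at, read 10.93, 11.04 and 10.95 in mock and 11.19, 11.04 and 11.06 with anti-miR-21 (0.12 ± 0.0621 SE, adjusted p = 0.357). On all 3, unlike at PMAIP1, replicate 1 was the highest of the anti-miR-21 arrays. In the brightest probe set the nearest arrays of the groups were almost level, at 11.041 and 11.042. None of the 3 passed in any fit that left out an array either.

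BIK, a BH3-only protein of the endoplasmic reticulum, had 1 probe set. It read 7.21, 7.66 and 7.66 in mock and 7.69, 7.69 and 7.65 with anti-miR-21, so mock replicate 1 stood apart and the other 5 arrays were close together (log2 difference 0.17, limma adjusted p = 0.525). Without mock replicate 1 the difference was 0.02. Mock replicate 1 was also the lowest array at MCL1 probe sets 214056_at and 214057_at.

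Among BH3-only genes as a class, 4 genes were tested through 9 probe sets. BCL2L11 fell, and BID, BIK and PMAIP1 did not pass. The arrays of the groups did not overlap at 5 of these 9 probe sets, 4 of them higher with anti-miR-21 (the 3 of BID and 1 of PMAIP1) and 1 lower. Over all tested probe sets, 11.4% had every anti-miR-21 array above mock and 12.6% every one below. The 3 BID probe sets read the same gene and are not independent.

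**Figure D2:**
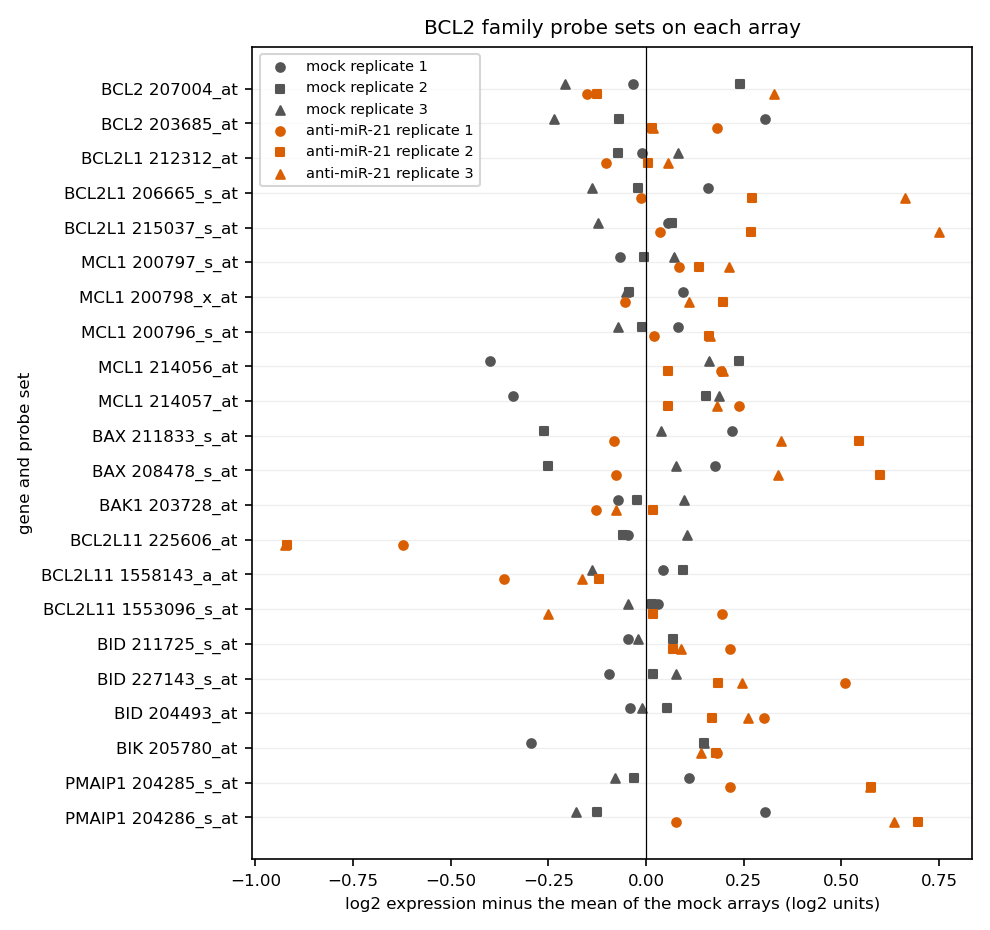
Each of the 22 tested probe sets on each array, as log2 expression minus the mean of the mock arrays, with grey symbols for mock and orange for anti-miR-21 and 1 shape per replicate number. The orange symbols of BCL2L11 225606_at lie furthest left, those of BID lie right of the grey ones, and at BAX, PMAIP1 and 2 BCL2L1 probe sets the orange squares and triangles lie right while the orange circle, replicate 1, stays near or among the grey symbols.

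The effectors BAX and BAK1, whose proteins form pores in the outer mitochondrial membrane, were not called. BAX probe set 211833_s_at read 11.35, 10.87 and 11.17 in mock and 11.05, 11.67 and 11.48 with anti-miR-21. Replicates 2 and 3 of anti-miR-21 lay above mock and replicate 1 lay within it. The log2 difference was 0.27 (95% interval -0.17 to 0.71, limma adjusted p = 0.494), and with 1 array left out it ran from 0.13 to 0.45 (adjusted p = 0.193 to 0.848). It was smallest when anti-miR-21 replicate 2 was dropped, 0.14 when mock replicate 2 was, and largest when anti-miR-21 replicate 1 was. The second BAX probe set, 208478_s_at, read 11.11, 10.68 and 11.01 in mock and 10.86, 11.53 and 11.27 with anti-miR-21, with the same order of arrays (log2 difference 0.29, limma adjusted p = 0.473). BAK1 read 9.28, 9.33 and 9.45 in mock and 9.22, 9.37 and 9.27 with anti-miR-21. Its groups overlapped, with a log2 difference of -0.06 and a 95% interval of -0.22 to 0.10 (limma adjusted p = 0.671). As a ratio to mock, that interval runs from 0.858 to 1.07 and covers only the spread among these arrays.

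Of the guardians, MCL1, a short-lived protein that binds BIM, NOXA and BAK, had log2 differences between 0.09 and 0.16 on its 5 tested probe sets, and none passed. The brightest, 200797_s_at, read 12.37, 12.43 and 12.51 in mock and 12.52, 12.57 and 12.65 with anti-miR-21. The groups did not overlap, but the lowest anti-miR-21 array and the highest mock array were nearly level (log2 difference 0.14 ± 0.0605 SE, limma adjusted p = 0.283). The other 4 had adjusted p values of 0.418 to 0.684 and overlapping arrays. The 5 probe sets read 1 gene and are not independent.

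BCL2L1 gave different readings on its 3 tested probe sets. Its brightest, 212312_at, read 9.99, 9.93 and 10.08 in mock and 9.90, 10.00 and 10.05 with anti-miR-21, with overlapping groups (log2 difference -0.01, 95% interval -0.17 to 0.14, limma adjusted p = 0.932). Probe set 206665_s_at read 9.35, 9.17 and 9.06 in mock and 9.18, 9.47 and 9.86 with anti-miR-21 (0.31 ± 0.171 SE, adjusted p = 0.402). Probe set 215037_s_at read 9.01, 9.02 and 8.83 in mock and 8.99, 9.22 and 9.70 with anti-miR-21 (0.35 ± 0.174 SE, adjusted p = 0.353). On the last 2, anti-miR-21 replicate 3 was the highest array and replicate 1 lay within the mock range. Without replicate 3 their log2 differences were 0.13 and 0.15, and without replicate 1 they were 0.47 and 0.51. The brightest and the other probe sets differed by -0.34 ± 0.155 (SE) in how far they moved, which did not pass (Simes adjusted p = 0.561).

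BCL2, the founding guardian, was close to the minimum. Probe set 207004_at read 4.71, 4.99 and 4.54 in mock and 4.60, 4.62 and 5.07 with anti-miR-21, and 203685_at read 4.57, 4.20 and 4.03 against 4.45, 4.28 and 4.29. The groups overlapped on both (log2 differences 0.02 and 0.07, limma adjusted p = 0.967 and 0.822). The 95% interval of the first, -0.37 to 0.40, does not distinguish a fall from a rise. The sign of the first changed with median centring (-0.02) and quantile normalization (-0.01). The other 2 BCL2 probe sets had means of 2.77 and 2.15 and were not tested.

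**Figure D3:**
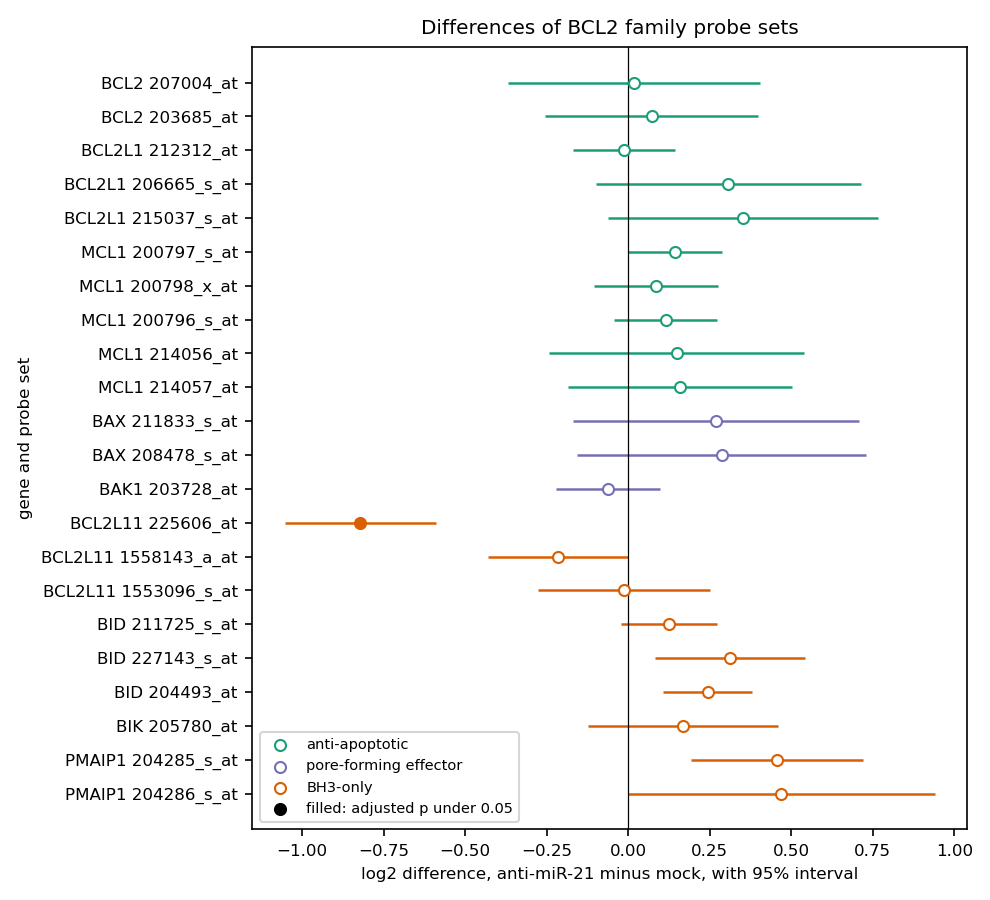
Log2 difference, anti-miR-21 minus mock, of the 22 tested probe sets with its 95% interval from the limma fit, coloured by role, filled where the adjusted p was under 0.05. BCL2L11 225606_at, at -0.82, is the 1 filled symbol. Without passing the adjustment, the intervals of BID 204493_at and 227143_s_at and of PMAIP1 204285_s_at lie above 0. That of BCL2L11 1558143_a_at lies barely below 0 and did not pass either.

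Across the family, 6 of 9 genes and 17 of 22 tested probe sets had a log2 difference above 0, where 43.3% of all genes and 49.0% of all probe sets did. Several of these probe sets read the same gene and are not independent, and the members were chosen with earlier results of these data known. The median over the 9 genes was 0.12, and that over all genes was -0.02. Arrays of the groups did not overlap for 4 of the 9 genes (MCL1, BID and PMAIP1 higher, BCL2L11 lower), against 25.5% of all genes tested (10.4% higher and 15.1% lower). At the level of probe sets this held for 6 of 22, against 24.0%, a share close to that of all probe sets.

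The anti-miR-21 arrays were not alike. On the first principal component of all tested probe sets, which held 50.4% of the variance, replicate 1 given anti-miR-21 scored 3.51, the other replicates of that group 20.1 and 19.6, and the mock arrays -19.9 to -7.25. At 6 of the 22 tested member probe sets (2 of BAX, 2 of BCL2L1, 1 of MCL1 and 1 of PMAIP1) replicates 2 and 3 lay above the mock range with replicate 1 inside it, a pattern seen in 8.35% of all probe sets. Probe sets of the same gene are not independent, so these 6 are not separate observations. Replicate 1 lay above the mock range at 8 of the 22 and below it at 5, as it did at 20.9% and 29.2% of all probe sets. BCL2L11 225606_at and the BID probe sets were among these. Correlations between arrays were 0.99625 to 0.99828 within groups, and the log2 difference between the ends of the ACTB transcript, which tracks RNA integrity, spanned 0.491 to 0.628 in mock and 0.589 to 0.606 with anti-miR-21. Their part in these results was not tested.

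The labelled line was checked against markers. Endothelial and mesenchymal markers were read as a single list. In mock, VIM, CAV1, CAV2, ANXA2 and CD44 lay between 14.27 and 15.7. PECAM1, CDH5, VWF and KDR of the same list lay at 3.01 or lower, with TEK at 4.64. The hepatocyte markers ALB, APOA1, TTR and FGB lay at 2.82 or lower, AFP and TF just above the minimum at 4.28 and 4.01, and SERPINA1 at 11.9. Of the immune markers read here, CD14 was the 1 tested, at 5.25. None of the 10 tested markers in these lists passed limma, and 0 had an unadjusted p under 0.05.

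The rest of the apoptosis pathway was followed through 5 gene lists. Among other BCL2 family and BH3-like genes, 8 of 13 were tested, 1 fell, none rose and 7 did not pass. Of all genes tested, 1.22% were called lower and 0.913% higher, and the 1 call here describes BNIP3 and not the list. BNIP3, a BH3-like mitophagy receptor induced by hypoxia, read 13.36, 13.38 and 13.27 in mock and 13.08, 13.02 and 12.99 with anti-miR-21. Its groups did not overlap, and it fell 1.24-fold (log2 difference -0.31 ± 0.0546 SE, limma adjusted p = 0.0457), a call lost when any 1 array was left out (adjusted p = 0.058 to 0.175), with all probe sets tested (0.0502), with median centring (0.0745) and with its probe sets averaged (0.0561). BCL2L13 and BCL2L12, less studied relatives of BCL2, had log2 differences of -0.14 and -0.11 (limma adjusted p = 0.239 and 0.367). Over the 8 genes the median difference was -0.01, close to that of all genes.

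Downstream of the mitochondria, none of 15 tested genes of 18 passed limma. At an unadjusted limma p under 0.05, 1 was higher and 3 were lower, as were 6.84% and 11.3% of all genes. Of the 15, 4 had a log2 difference above 0, against 43.3% of all genes, and the median was -0.05. This list was chosen with earlier results of these data known. BIRC2, which encodes the caspase and NF-κB regulator cIAP1, read 13.02, 13.00 and 12.97 in mock and 13.24, 13.23 and 13.25 with anti-miR-21. The arrays within each group were nearly level and the groups did not overlap (log2 difference 0.24 ± 0.0454 SE, limma adjusted p = 0.0522). BIRC2 was called under 5 of the alternatives (adjusted p = 0.0168 to 0.0471), and not under the others, which include every fit with 1 array left out (0.0718 to 0.196) and median centring (0.199). CASP6, an executioner caspase, had a log2 difference of -0.34 ± 0.0795 (SE, limma adjusted p = 0.0912) and was called without anti-miR-21 replicate 1 (0.0354) but under no other alternative. Its averaged probe sets gave -0.18 (adjusted p = 0.104).

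In the death receptor branch, which meets the family at BID, none of 8 tested genes of 10 passed limma (1 lower at an unadjusted p under 0.05), and the median was 0.02. TRADD, an adaptor of the TNF receptor, had a log2 difference of -0.24 and TNFRSF10B, a TRAIL receptor, of 0.09 (limma adjusted p = 0.213 and 0.403). Among 6 regulators of MCL1 protein turnover none passed limma (1 lower at an unadjusted p under 0.05), with the deubiquitinase USP13 at -0.13 and the ubiquitin ligase subunit FBXW7 at 0.18 (adjusted p = 0.252 and 0.392), and the median was -0.02.

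Transcription factors known to act on BCL2 family genes formed the last list, with the pseudokinase gene TRIB3 counted among them here. Of 15 listed genes 13 were tested, 1 rose, none fell and 12 did not pass. Of all genes tested, 0.913% were called higher and 1.22% lower. In the list 11 had a log2 difference above 0, with a median of 0.21, against 43.3% of all genes and a median of -0.02. Because the list was chosen with earlier results of these data known, this share gives no independent evidence. The 1 call describes ATF3 and not the list. ATF3, a stress-induced factor, read 7.85, 7.70 and 7.82 in mock and 8.41, 8.98 and 9.17 with anti-miR-21 (log2 difference 1.06 ± 0.184 SE, limma adjusted p = 0.0422). DDIT3, the stress factor CHOP, read 7.66, 7.53 and 7.33 in mock and 8.03, 8.81 and 8.86 with anti-miR-21 (1.07 ± 0.224 SE, adjusted p = 0.0718). In both genes replicate 1 was the lowest of the anti-miR-21 arrays, as it was at PMAIP1. Without it DDIT3 was called (adjusted p = 0.00855), as it was with a minimum of 6, median centring or averaged probe sets (0.0303 to 0.0475). ATF3 lost its call when any other array was left out (0.0794 to 0.16) and with all probe sets tested (0.102). STAT3, a cytokine-responsive factor, had a log2 difference of 0.28 (adjusted p = 0.112).

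**Figure D4:**
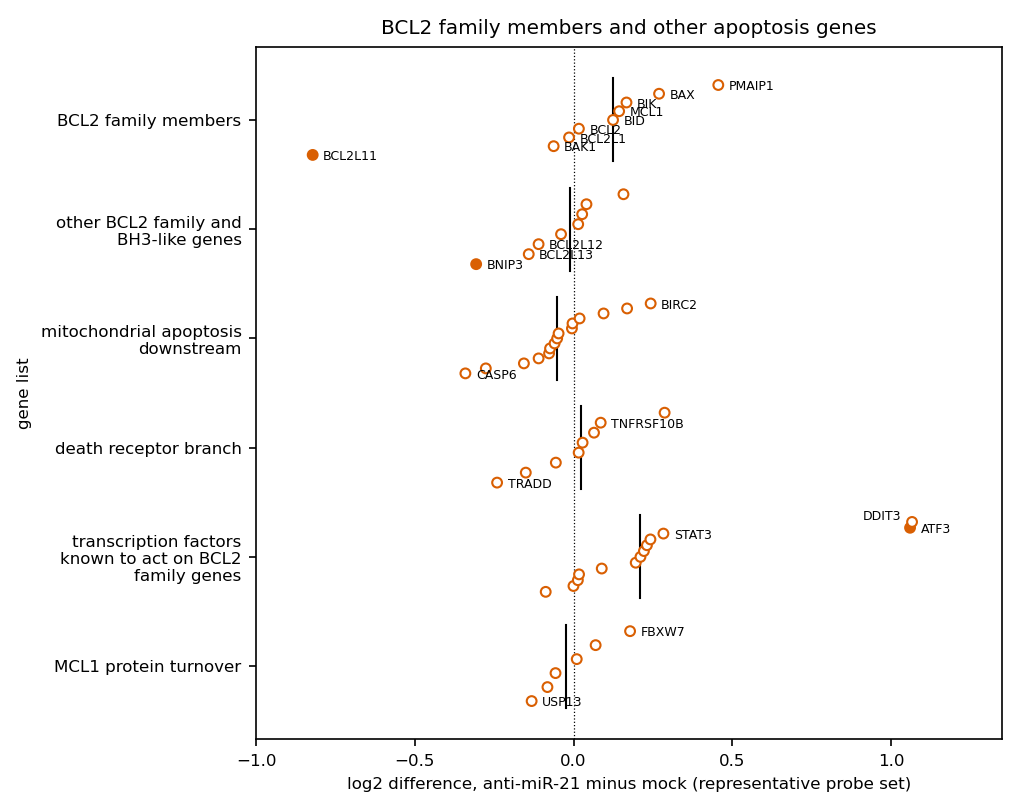
Log2 difference, anti-miR-21 minus mock, of the representative probe set of each tested gene in the family and in 5 further lists, with a vertical bar at each list's median and filled symbols where the limma adjusted p was under 0.05. BCL2L11, BNIP3 and ATF3 are filled, and the median of the transcription factors, 0.21, lies furthest right. Members and lists were chosen with earlier results of these data known.

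The genes whose values over the 6 arrays ran most closely with those of BCL2L11 were TENT5B, RHBDD1, NSF, BTN3A2 and KIF2C, with Pearson correlations of 0.995 to 0.998. This describes 6 arrays in 2 groups and gives no independent evidence. TENT5B, a noncanonical poly(A) polymerase, went from 10.15 to 9.74 (log2 difference -0.41, limma adjusted p = 0.0226) and RHBDD1, a rhomboid protease, from 8.27 to 7.78 (-0.49, adjusted p = 0.0275). The other 3 were not called, with log2 differences of -0.20 for NSF, -0.10 for BTN3A2 and -0.32 for KIF2C.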

How the data were processed

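Total RNA, as labelled, from 6 samples (3 mock, 3 anti-miR-21) was amplified to biotin-labelled cRNA. The authors deposited 54675 probe sets as log2 values. Per the submitters' processing notes they used GCRMA, which corrects background, normalizes between arrays and compresses dim probe sets, so folds near the floor are less certain. No version or setting is given in the sources used here, and scanner files were not used here. After 62 controls were left out, 22408 of 54613 probe sets had a mean of at least 4 and were tested as deposited with limma 3.58.1 in R 4.3.3 (two-sided, no covariate, Benjamini-Hochberg over all of them, threshold 0.05). Adjusted p values come from this fit unless a setting is named. A gene took its brightest probe set with a single annotated gene, 10848 genes in all. The text names every member, in each other list the called genes and the 2 others with the smallest p, and 5 genes like the top member. Members and lists were chosen with earlier results of these data known. In simulated data over 22408 probe sets, limma recovered 88 of 100 changes of 1.5-fold and 98 of 100 of 2-fold, with 8 false calls. The test of probe sets moving apart recovered 96 of 100 shifts of 1 log2 unit over 5285 genes, with 5 false calls. Both simulations drew noise independently for each array and probe set and shifted every anti-miR-21 array equally. The arrays here were not alike, so these recoveries do not show that an uncalled member was unchanged. Replicates are labelled biological without saying whether cultures were separate, so the p values cover only the spread among these arrays, and the number of arrays limits precision. Alternatives were the minimum, centring, quantile normalization, the variance model, a replicate block, averaging or dropping probe sets, and leaving out each array.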

Additional observations from a re-analysis of the deposited data

How the results depend on the processing

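The direction of BCL2L11 was negative under every alternative run, with log2 differences of -0.86 to -0.82 for its brightest probe set when all arrays were used. Leaving out 1 array at a time gave -0.92 to -0.77 for it, 0 to 2 called members among genes and among probe sets, 38 to 226 called genes, 96 to 574 called probe sets, 0 called among other BCL2 family genes, 0 to 1 downstream of the mitochondria and 0 to 2 among transcription factors. Same-numbered samples of the 2 groups did not deviate together (correlations of -0.361, -0.266 and -0.00187), and pairs with different numbers gave -0.232 to 0.399. With so few arrays, centred within each group, these values cannot decide whether the numbers pair samples. With a replicate block, 91 probe sets and 32 genes were called, in place of 486 and 231, and 0 members, 0 other BCL2 family genes and 0 transcription factors, with BCL2L11 at -0.82 (limma adjusted p = 0.0658). Averaging the probe sets of a gene gave 355 called genes. BNIP3 was lost from the other BCL2 family genes (count 0) with no minimum, with median centring and with averaging. Downstream of the mitochondria the count was 1 with no minimum, a minimum of 6, quantile normalization, the trend and robust variance model and averaging. Among transcription factors it was 0 with no minimum and 2 with a minimum of 6, median centring or averaging. Signs that changed were those of uncalled values: BCL2 207004_at (-0.0211 with median centring, -0.0105 with quantile normalization, -0.138 to 0.138 with arrays left out), BCL2 203685_at (-0.0456 to 0.224), BCL2L1 212312_at (-0.0498 to 0.0296 with arrays left out, and 0.215 for the gene's averaged probe sets), BCL2L11 1553096_s_at (-0.117 to 0.107), MCL1 214056_at (-0.0511 to 0.267) and 214057_at (-0.0117 to 0.252), and FBXW7 (-0.00025 when averaged). The cause of these changes was not tested.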
